A study of Mus musculus with 15 samples.

Results

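Chromatin regulators are the enzymes and remodelling motors that decide how tightly DNA is packed around histones. Acetyltransferases and methyltransferases write marks on histone tails, demethylases remove them, the SWI/SNF, CHD and ISWI machines slide or evict nucleosomes with energy from ATP, and DNMT and TET proteins add methyl groups to cytosine or oxidise them. Many of these proteins are very large, they are made in nearly every cell type, and in the developing kidney they take part in keeping nephron progenitors and in switching them to differentiation. The set described here holds 39 such genes. Each was represented by the array probe set that carries its symbol alone, and where a gene had several, by the brightest over all 15 arrays, so only the mean signal over all arrays entered the choice. Of the 39 genes, 37 had such a probe set, out of 19938 genes measured in the same way. Ncor1 and Ash1l were not listed in the platform annotation used here and have no value.

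The signals are log2 values from mouse gene arrays, and 4 groups were compared. The MM group is 4 single cells of the metanephric mesenchyme, the embryonic tissue from which nephrons form, picked with glass needles at embryonic day 11.5 from mice with the transgene Tg(Crym-EGFP)GF82Gsat, sex unknown. The JG group is 5 single cells of the juxtaglomerular complex, where renin is made, picked after collagenase A and trypsin from adult male Ren1c-YFP mice, although the dissection text in the labels speaks of Ren1d GFP mice. Adult renal cortex of male Ren1c-YFP mice, a mixture of cell types taken with a scalpel, was profiled in 2 ways with 3 libraries each (A, B and C). The diluted cortex was lysed, diluted and amplified with the single cell protocol, recorded as 32 rounds, which the MM and JG cells also went through. The standard-labelled cortex was labelled with a NuGEN kit for small RNA amounts, recorded as 1 round. These kinds of cortex library therefore differ in RNA amount, preparation and labelling together, and these cannot be told apart. Strain is unspecified for every group. Animals are not named in the labels, which makes the cells of a kind 1 sample with no test, and p-values for the cortex measure only the spread between libraries, which may be technical.

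The level below which a probe set cannot be told from background was taken on each array as the 99th percentile of 1205 olfactory and vomeronasal receptor probe sets, genes known mainly from sensory neurons. It lay between 6.18 and 6.52 on the 6 cortex arrays, between 7.13 and 7.56 for the MM group and between 7.55 and 7.93 for the JG group, so a gene had to be brighter to be seen in a single cell. All 10 proximal tubule markers and all 4 thick ascending limb markers were above background in every cortex library. Of 11 mesenchyme markers, 3 to 6 were above it in each MM cell and 1 to 6 in each JG cell. In JG cells 2 to 5 of 7 measured renin cell markers were above background, against 0 to 1 in MM cells. The marker in MM cell 15 was Crip1 at 7.93. In MM cell 19 it was Myl9 at 11.80, above the cortex libraries at 8.07 to 11.12. The part of this Myl9 signal in the regulator values of MM cell 19 was not tested. Ren1 and Ren2, which define the JG cell, have no probe set carrying their symbol alone and could not be checked. At most 2 of 10 proximal tubule markers were above background in any cell, and none of the thick ascending limb or macrophage markers was. The 2 in JG cell 5 were Miox at 12.63, above the cortex libraries at 11.98 to 12.40, and Slc22a6 at 8.74. The other JG cells had 6.87 to 7.20 for Slc22a6. The part of this tubule signal in the regulator values of JG cell 5 was not tested. Of 5 endothelial markers, 1 was above background in 1 cell: Emcn, a surface protein of capillary endothelium, read 11.77 in MM cell 14, higher than the cortex libraries at 9.79 to 10.35, with the other 4 markers below background there. MM cell 14 is also the cell with the most regulators above background, and the part of this signal in that count was not tested.

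Before the signals, 3 promoters show how the genes differ at their listed start sites. They belong to Pbrm1, the gene with the largest estimated difference between the cortex libraries, to Bptf, whose brightest probe set did not pass the test, and to Dnmt1, the gene with the largest MM minus JG difference. Each is the 250 bases before the start site in RefSeq's table for assembly GRCm38.p6, at chr14:31018888-31019137 (plus strand), chr11:107132148-107132397 (minus strand) and chr9:20959889-20960138 (minus strand). The sequences run 5′ to 3′ on the gene's strand, and capitals mark each CG pair, the dinucleotide at which DNMT enzymes methylate.
Pbrm1: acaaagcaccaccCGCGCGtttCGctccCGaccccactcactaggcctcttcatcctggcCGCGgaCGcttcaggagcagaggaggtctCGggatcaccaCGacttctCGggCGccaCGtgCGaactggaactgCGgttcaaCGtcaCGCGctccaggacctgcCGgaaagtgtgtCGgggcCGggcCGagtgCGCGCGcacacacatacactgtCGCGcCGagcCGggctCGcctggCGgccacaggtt
Bptf: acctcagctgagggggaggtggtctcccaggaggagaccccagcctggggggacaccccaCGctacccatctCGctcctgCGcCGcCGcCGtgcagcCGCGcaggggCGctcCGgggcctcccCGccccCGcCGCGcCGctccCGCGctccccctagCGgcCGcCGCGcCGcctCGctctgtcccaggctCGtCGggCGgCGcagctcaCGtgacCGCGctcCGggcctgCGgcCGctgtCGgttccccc
Dnmt1: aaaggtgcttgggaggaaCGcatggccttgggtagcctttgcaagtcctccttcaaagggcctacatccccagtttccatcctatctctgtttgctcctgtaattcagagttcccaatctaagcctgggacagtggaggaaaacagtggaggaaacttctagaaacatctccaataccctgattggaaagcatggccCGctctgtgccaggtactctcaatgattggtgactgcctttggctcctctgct

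The windows of Pbrm1 and Bptf hold 31 and 34 CG pairs, and that of Dnmt1 holds 2, the fewest of any regulator with a promoter. A promoter was found for 27 of the 37 regulators, and their median was 25 CG pairs in 250 bases. Over all 17492 protein-coding promoters of the table the median was 10, and over the 10003 of genes tested in the cortex comparison it was 15. In all, 25 of the 27 regulators lay at or above the first value and 23 at or above the second. GGGCGG, the core letters bound by Sp-type factors, stood on either strand in 23 of 27 windows (85.2%), in 42.7% of all promoters and in 58.1% of those of tested genes. TATAAA, the TATA box letters, was found in 1 of 27 (3.7%), against 12.4% of all and 6.81% of those of tested genes. CCGGAAG, the core of Ets-type sites, was found in 2 of 27 (7.41%), against 9.15% and 13.0%. These letter matches are descriptions and not binding sites, and a gene can have other start sites than the table's. Which start these samples used was not tested, for Dnmt1 or any other regulator. For Baz2b, a bromodomain protein, the listed start lies 84173 bases from the end of the gene model nearest to its origin, and its window holds 4 CG pairs. The next largest distances are 15530 bases for Tet3, 5421 for Dnmt3a and 2872 for Kmt2d.

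The standard-labelled cortex showed nearly the whole set. Of the 37 regulators, 37, 36 and 37 were above background in libraries A, B and C, and the gene below it in B was Tet3, which encodes a cytosine-oxidising enzyme. In the diluted cortex 15, 10 and 13 of the 37 were above it. Expressed as shares, 100%, 97.3% and 100% of the regulators were above background in the standard-labelled libraries, where the share of all measured genes was 43.7%, 48.2% and 47.8%. In the diluted libraries the regulators' shares were 40.5%, 27.0% and 35.1%, and those of all genes 50.5%, 48.3% and 48.4%. Each diluted library lay below each standard-labelled one for the regulators, whereas for all genes the lowest diluted share, 48.3%, was just above the highest standard-labelled one, 48.2%. Their median signal was 6.08, 6.06 and 6.15 in the diluted and 8.15, 8.29 and 8.11 in the standard-labelled libraries, 2 ranges that do not overlap, while the receptor probe sets differed by -0.04.

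**Figure D1:**
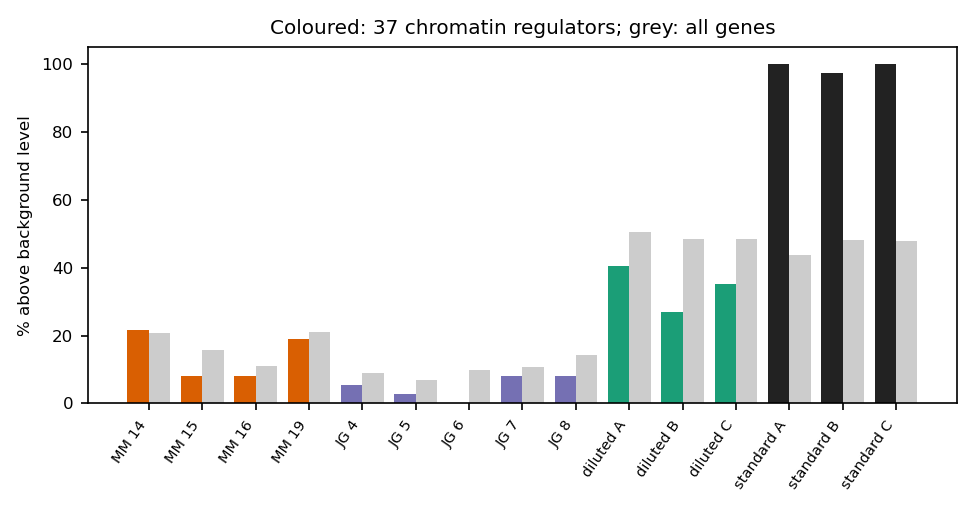
Share of the 37 chromatin regulators (coloured bars) and of all 19938 measured genes (grey bars) above the background level of each array, in percent; orange, MM cells; purple, JG cells; green, diluted cortex; black, standard-labelled cortex. The regulators reach 97.3% to 100% in the standard-labelled libraries and 27.0% to 40.5% in the diluted ones, and in JG cell 6 none is above the level.

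Diluted and standard-labelled cortex were set against each other to ask how the single cell protocol, applied to a small amount of tissue RNA, represents these genes. The test was limma across all 19531 probe sets that passed a filter on dim signals, with Benjamini-Hochberg adjustment over all of them. By this test 35 of 37 regulators were lower in the diluted cortex, none was higher, and Smarca4 and Bptf passed in neither direction. Of all probe sets 36.7% were lower and 38.0% higher, and of the 12828 genes tested by their brightest probe set 32.7% were lower and 42.6% higher, so most of the set fell where more genes overall rose than fell. In 36 of 37 regulators every diluted library lay below every standard-labelled one, against 34.4% of all genes. The log2 difference, diluted minus standard, was -1 or lower in 31 of 37, against 16.5% of all genes. It was -2 or lower in 17 and -3 or lower in 7, the last all genes below background in every diluted library. The median over the regulators was -1.77 and their range -5.58 to 0.27. The median over all genes tested was 0.12 and their 5th percentile -2.16. Because the set was put together with earlier results of these libraries known, these counts describe it and are not independent evidence of its direction. All 37 passed the filter, which asks that the brighter cortex group reach a mean of 5.83, and 11 of them passed only through the standard-labelled group. The 11 were Ep300, Kmt2c, Kmt2e, Pbrm1, Chd2, Chd6, Chd8, Chd9, Kdm5a, Tet1 and Tet2, all below background in every diluted library. Because the filter let them in only through the group where they are high, their p-values are descriptions and no support for the fall. Of the 37, 20 were below background in all 3 diluted libraries, and for these the diluted level is a bound: their fold is given as at least the ratio of the mean standard-labelled signal to the background level of the diluted arrays. With these 20 set at their bound, an alternative chosen after seeing the data, 29 regulators were -1 or lower (13.9% of all genes treated alike), 13 were -2 or lower (4.31%) and 3 were -3 or lower (1.14%), namely Crebbp, Kmt2e and Pbrm1, and the regulators' median was -1.56.

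**Figure D2:**
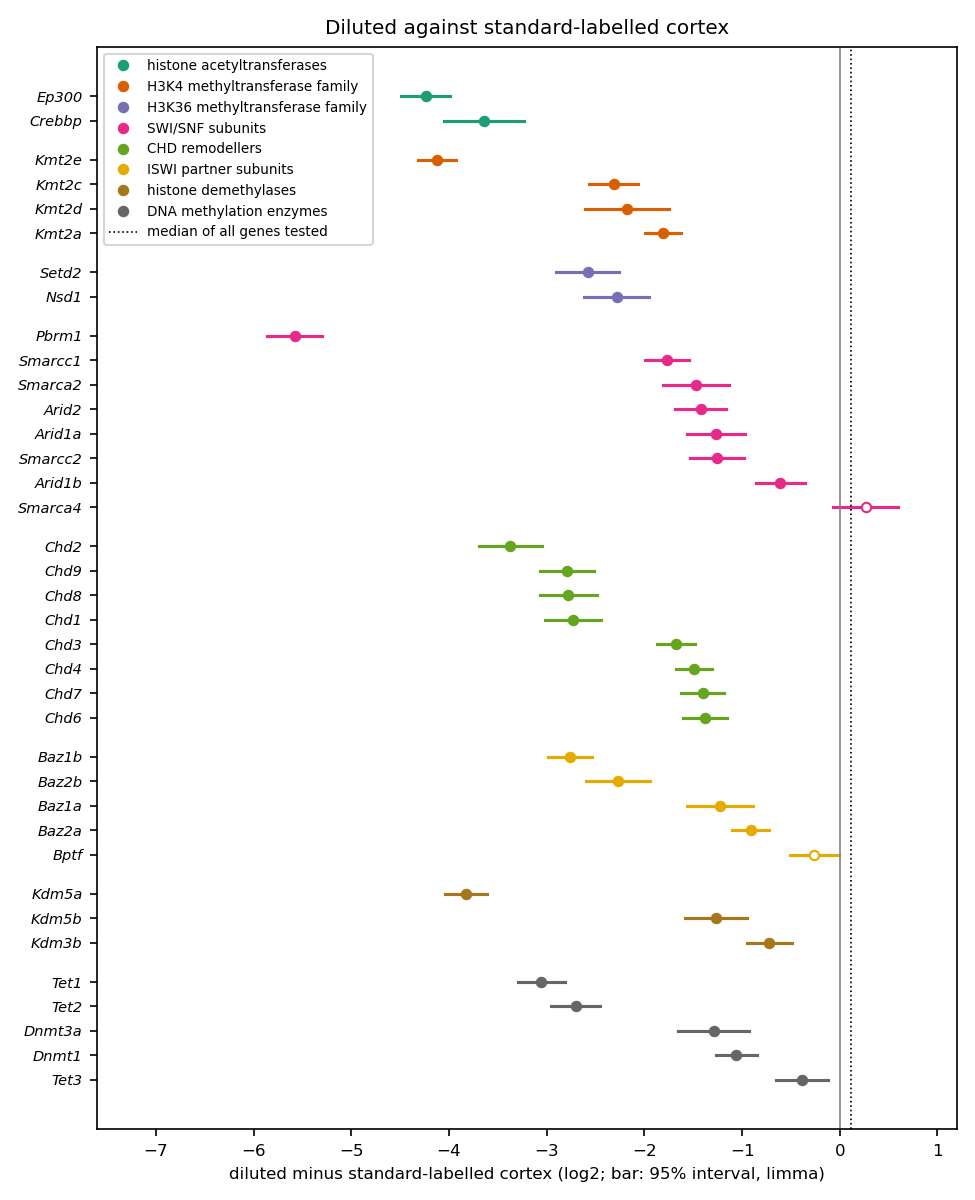
Log2 signal in diluted minus standard-labelled cortex for the 37 regulators, grouped by role, as estimated by limma with its 95% interval (bars; 3 libraries a group). Filled points passed the test, and the open points are Smarca4 and Bptf. The dotted line marks 0.12, the median of all genes tested, and every regulator but Smarca4 lies to its left.

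The histone acetyltransferases Ep300 and Crebbp, sister coactivators that acetylate histones at enhancers, both fell below background in the diluted cortex. Ep300 had signals of 5.19, 4.90 and 4.89 in the diluted and 9.22, 9.20 and 9.29 in the standard-labelled libraries. The groups lay far apart, with each diluted library below the background level. The difference was -4.24 (SE 0.11, limma adjusted p = 4.96e-08), or at least 7.89-fold lower. Crebbp stood at 5.43, 5.96 and 6.15 in the diluted and 9.46, 9.45 and 9.55 in the standard-labelled libraries, again without overlap. It fell by 3.64 on the log2 scale (SE 0.18, limma adjusted p = 5.68e-07), at least 9.40-fold. In the 9 single cells Ep300 lay between 4.94 and 6.07 and Crebbp between 6.13 and 7.10, below background in every cell.

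All 4 measured members of the family of H3K4 methyltransferases fell, with a median difference of -2.25. Kmt2e, whose protein carries a SET domain but is not known as an active methyltransferase, had the largest bound of the 4. Its signals were 5.66, 5.58 and 5.53 in the diluted and 9.73, 9.72 and 9.70 in the standard-labelled libraries, and within each group the libraries lay close together. Kmt2e was thus at least 11.0-fold lower (log2 difference -4.12, SE 0.08, limma adjusted p = 2.94e-08), and it passed the filter only through the standard-labelled group. Kmt2a, the trithorax-type writer known for its control of Hox genes, had 6.04, 5.97 and 6.01 against 7.79, 7.83 and 7.84. The 2 ranges are narrow and separate, and the difference of -1.81 (SE 0.08) is at least 2.96-fold. Kmt2c and Kmt2d, which write the enhancer mark of a single methyl group, differed by -2.31 (at least 2.66-fold) and -2.18. The order of Kmt2a and Kmt2c, both below background in every diluted library, cannot be read from these values.

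The writers of H3K36 methylation both fell. Setd2, which trimethylates this residue behind elongating RNA polymerase, had signals of 6.10, 5.58 and 5.96 in the diluted and 8.39, 8.48 and 8.52 in the standard-labelled libraries. Nsd1, which writes the dimethyl form, had 6.60, 6.11 and 6.48 against 8.68, 8.55 and 8.81. Neither gene's groups overlap. Setd2 was at least 4.62-fold lower (log2 difference -2.58, SE 0.14, limma adjusted p = 9.72e-07), and Nsd1, above background in 2 of 3 diluted libraries, differed by -2.28 (SE 0.14, limma adjusted p = 2.27e-06).

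SWI/SNF subunits spread more widely than any other role. Pbrm1, the bromodomain subunit that marks the PBAF form of the complex, had the largest estimated difference and the largest bound of the whole set. Its signals were 5.28, 5.63 and 5.24 in the diluted and 10.98, 10.90 and 11.00 in the standard-labelled libraries, so that a gene far above background with standard labelling was below it in all 3 diluted libraries. The difference was -5.58 (SE 0.12, limma adjusted p = 3.38e-08), at least 26.1-fold. Its 2 dimmer probe sets gave -2.87 and -3.97 and were called lower as well. All 3 passed the filter only through the standard-labelled group, so these calls are descriptions and no support for the fall.

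Smarca4, the ATPase motor of the same complexes, was the exception. It read 8.33, 8.55 and 8.18 in the diluted and 7.86, 8.30 and 8.11 in the standard-labelled libraries, and the groups overlap. The difference was 0.27 (SE 0.14, 95% interval -0.07 to 0.60, limma adjusted p = 0.124). This is the one regulator whose highest group mean lay in the diluted cortex. Smarca2, the alternative ATPase that replaces Smarca4 in some complexes, had 9.27, 8.81 and 9.07 against 10.68, 10.31 and 10.55. It fell by 1.47 on the log2 scale (SE 0.15, limma adjusted p = 3.39e-05), yet stayed well above background in every diluted library. The scaffolds Smarcc1 and Smarcc2 differed by -1.77 and -1.25, and the DNA-binding ARID subunits Arid2, Arid1a and Arid1b by -1.42, -1.26 and -0.61.

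All 8 CHD remodellers fell, with a median difference of -2.20. Chd2, a chromodomain motor active on transcribed genes, had 4.64, 5.06 and 4.92 in the diluted and 8.04, 8.30 and 8.39 in the standard-labelled libraries. The groups are separate, and the difference of -3.37 (SE 0.14, limma adjusted p = 2.76e-07) is at least 3.97-fold. Chd6 had 5.75, 5.71 and 5.53 against 6.96, 7.08 and 7.10, also apart, a difference of -1.38 (SE 0.10, limma adjusted p = 4.17e-06) and at least 1.73-fold. Chd1, which recognises methylated H3K4, differed by -2.73, and Chd8 and Chd9, of the same subfamily as Chd6, by -2.78 and -2.80, at least 4.15-fold and 4.28-fold. Since Chd2, Chd6, Chd8 and Chd9 were below background in every diluted library, they have no order by size. The motors of the repressive NuRD complex, Chd3 and Chd4, differed by -1.68 and -1.49 and were above background in all 3 diluted libraries, as was Chd7, which differed by -1.40.

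Among the partners of the ISWI motors, 4 of 5 fell. Baz1b, the partner of SMARCA5 in the WICH complex, had 6.08, 6.12 and 6.06 in the diluted and 8.94, 8.69 and 8.92 in the standard-labelled libraries. These groups do not overlap, and the difference of -2.76 (SE 0.10, limma adjusted p = 1.32e-07) is at least 6.04-fold. Bptf, the reader subunit of the NURF complex, had 7.26, 7.06 and 7.23 against 7.28, 7.57 and 7.49. Its groups lie next to each other without overlap, and the difference of -0.26 (SE 0.11) missed the threshold (limma adjusted p = 0.0575). A second, dimmer probe set of Bptf gave -3.07 and was called lower. Baz1a, Baz2a and Baz2b, partners in chromatin assembly and silencing complexes, differed by -1.22, -0.91 and -2.27.

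The 3 histone demethylases fell by unequal amounts. Kdm5a, which removes methyl groups from H3K4, had 4.67, 4.67 and 4.79 in the diluted and 8.51, 8.45 and 8.65 in the standard-labelled libraries. It fell by 3.82 on the log2 scale (SE 0.09, limma adjusted p = 4.37e-08), at least 4.85-fold, with the groups far apart. Kdm3b, which acts on H3K9, had 7.26, 7.36 and 7.54 against 8.06, 8.17 and 8.10. Here too the groups are separate, but the gene was above background in all 6 libraries, and the difference was -0.72 (SE 0.10, limma adjusted p = 0.000271). Kdm5b, a close relative of Kdm5a, differed by -1.27.

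The 5 genes of the DNA methylation machinery all fell. Tet1, an oxidase of methylated cytosine, had 4.97, 5.17 and 5.24 in the diluted and 8.15, 8.29 and 8.11 in the standard-labelled libraries, well apart. The difference was -3.06 (SE 0.10, limma adjusted p = 1.19e-07), at least 3.81-fold. Tet3, of the same family, had 5.90, 5.95 and 6.06 against 6.55, 6.18 and 6.33, groups that lie close to each other and to the background level. It differed by -0.38 (SE 0.11, limma adjusted p = 0.0155), at least 1.07-fold, and was no longer called with quantile normalization (-0.27, limma adjusted p = 0.0558) or in a fit over all 15 arrays (limma adjusted p = 0.326). Tet2 differed by -2.70. Dnmt1, which copies methylation after replication, differed by -1.06 (SE 0.09) and lost its call in the fit over all 15 arrays (limma adjusted p = 0.132). Dnmt3a, which sets methylation anew, differed by -1.29.

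Several probe sets measured 8 of the regulators, 46 in all, and they show how far the choice of the brightest one matters. Of the 46, 28 passed the filter. Of those, 25 were lower in the diluted cortex, 3 passed in neither direction and none was higher. Chd7, a CHD remodeller mutated in CHARGE syndrome, had 30 of them, of which 14 were tested and 12 called lower, with a median difference of -0.81 over the 30 and a range of -2.36 to 0.12. In 5 of the 30 all 3 standard-labelled libraries were above background. Both Setd2 probe sets, both of Kmt2d and all 3 of Tet1 were called lower, those of Tet1 between -3.06 and -0.55. Many of those called lower, among them all of Pbrm1 and Tet1 and several of Chd7, had a diluted mean under 5.83. The filter let them in only through the standard-labelled group, so their calls are descriptions and no support for the fall. Probe sets of 1 gene share its RNA and are not replicates of the comparison.

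**Figure D3:**
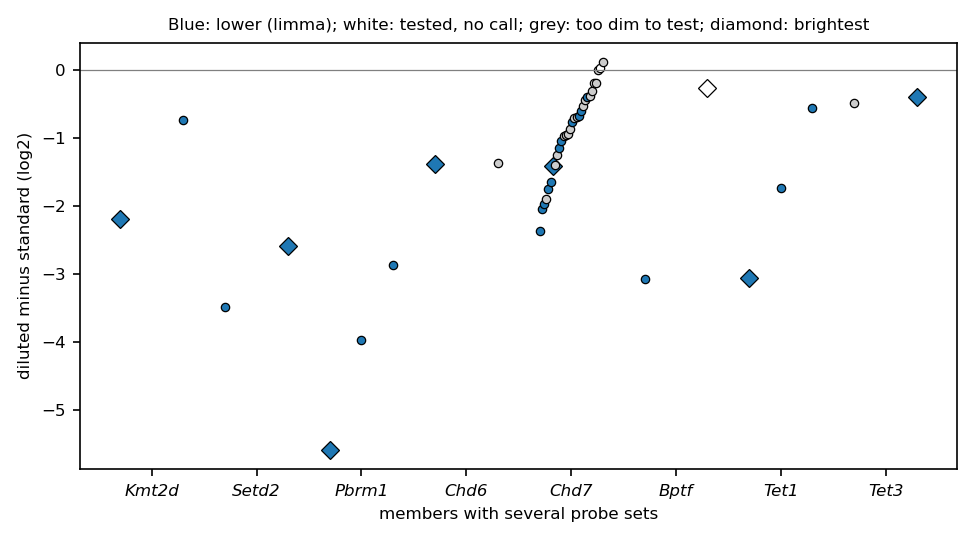
Log2 difference, diluted minus standard-labelled cortex, of each of the 46 probe sets of the 8 regulators measured by several. Blue was lower by limma, white was tested without a call, grey was too dim to test, and diamonds are the brightest probe set of each gene. The 2 Bptf probe sets stand at -0.26 and -3.07, and those of Chd7 run from -2.36 to 0.12.

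The other subunits and enzymes of the same complexes went in both directions. Of 99 measured partner genes in 8 lists, 98 were tested, 49 were lower, 34 higher and 15 neither, with a median difference of -0.27. Among 16 smaller SWI/SNF subunits 3 were lower and 8 higher. Their median was 0.66, above that of all genes, whereas the 8 large subunits described above had a median of -1.34. Bcl7c and the actin-related Actl6a were higher by 2.70 (limma adjusted p = 1.89e-06) and 2.17 (limma adjusted p = 1.71e-07). Among 10 partners of the H3K4 writers 5 were lower and 3 higher, with the CG-binding Cxxc1 at 1.99 (limma adjusted p = 3.95e-06) and the demethylase Kdm6a at -1.96 (limma adjusted p = 3.65e-05).

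NuRD and corepressor subunits were lower in 11 and higher in 7 of 19. Mbd3, its methyl-CG-binding family member, rose by 3.80 (limma adjusted p = 8.38e-08), whereas Gatad2b of the same complex fell by 3.28 (limma adjusted p = 4.96e-07). Of 4 tested ISWI motors and small subunits, 2 were lower and 2 higher, with Rsf1 at -3.52 and the histone-fold protein Chrac1 at 2.58. Polycomb proteins, the repressive counterpart of the trithorax writers, were lower in 9 and higher in 7 of 20, with Phc3 at -3.71 and Suz12 at -2.98. Other acetyltransferases were lower in 5 and higher in 4 of 9, with Kat6a at -2.57 and Kat6b at -2.20. Other demethylases and methyltransferases were lower in 12 and higher in 2 of 16, with Kdm2a at -2.93 and Kdm4c at -1.94. Among 4 cofactors of DNA methylation 2 were lower and 1 higher, with Mbd1 at 1.65 and Mbd4 at -1.10. Within single complexes the 2 directions therefore stand side by side.

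Markers of cell types moved between the cortex libraries as well. Of 10 proximal tubule markers 2 were lower and 8 higher in the diluted cortex, of 4 thick ascending limb markers 3 were lower and 1 higher, and of 5 endothelial markers 3 were lower and none higher. The 2 lower proximal tubule markers were Lrp2 at -3.11 and Cubn at -3.53, while the 8 higher ones differed by 0.24 to 2.16. Markers of 1 cell type thus moved in both directions. Of 4 tested macrophage and leukocyte markers 1 was lower and 3 were higher, and 3 of that list of 5 were above background in each diluted library against 1 to 2 in the standard-labelled ones. The part of these shifts in the regulators' differences was not tested. In tissue samples, fewer cells of a type and less RNA per cell cannot be told apart.

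The set was named for long transcripts, which the files used here do not give, so the label was checked only against genomic span, the distance from start to end of the RefSeq gene including introns. The median span of the 37 regulators was 86.1 kb, from 26.2 kb for Chd3 to 353.4 kb for Arid1b, and the median of tested genes was 20.9 kb. All 37 lay above that median, and 33 fell in the 3 longest of 10 equal bins. Across 12823 tested genes the difference and the span had a Spearman correlation of -0.37. These points share the same 6 libraries and are not independent. Bin medians went from 0.61 in the third bin to -0.54 in the 2 bins of longest span. In those 2 bins 58.8% and 60.0% of genes were lower in the diluted cortex. The regulators in them, 16 and 12, had medians of -2.43 and -1.45, below the bins' own medians, and 14 and 12 of them were lower. Among the 37 regulators themselves span and difference had a Spearman correlation of -0.01: Arid1b with the longest span had one of the smallest differences, and Pbrm1 with a span of 102.5 kb had the largest estimate. The diluted level of Pbrm1 is a bound.

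**Figure D4:**
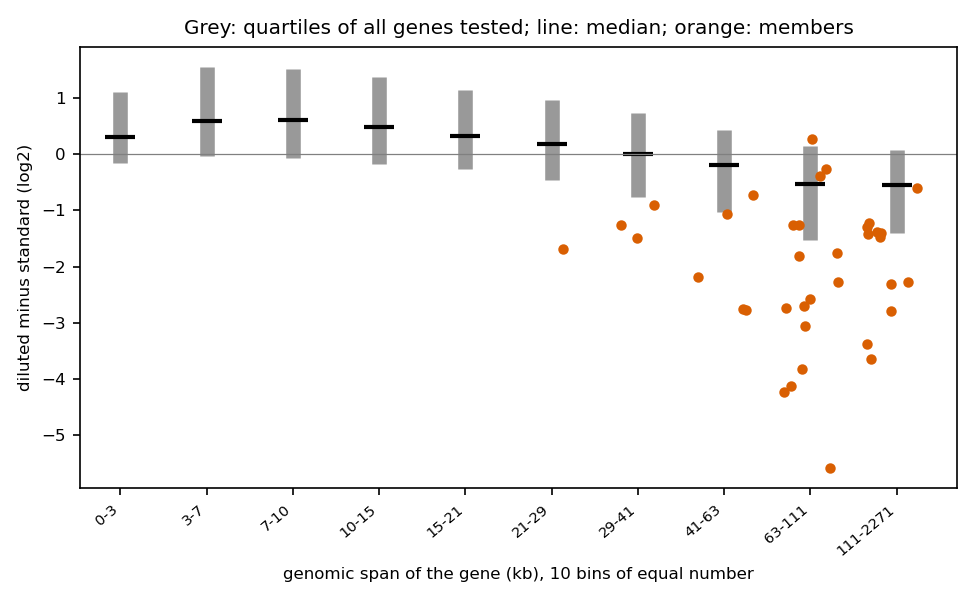
Log2 difference, diluted minus standard-labelled cortex, by genomic span of the gene in kb, in 10 bins of equal gene number. Grey bars are the quartiles and black lines the medians of all tested genes, and orange points are the 37 regulators. Bin medians fall from 0.61 in the third to -0.54 in the last 2 bins, and most regulators lie below the grey bar of their bin.

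In single cells few of the regulators could be seen. Among the 37, 26 were above background in none of the 9 cells and 11 in at least 1. Counted over genes and cells, 30 of 333 pairs were above it. MM cells 14, 15, 16 and 19 had 8, 3, 3 and 7 regulators above background, and JG cells 4 to 8 had 2, 1, 0, 3 and 3. As shares of the 37 these are 8.11% to 21.6% in the MM group and 0.0% to 8.11% in the JG group, where all genes reached 10.9% to 21.1% and 6.78% to 14.2%. In 8 of 9 cells the regulators' share was below that of all genes, and in MM cell 14 it was 21.6% against 20.6%. The gaps went from 18.9% against 21.1% in MM cell 19 to 0.0% against 9.98% in JG cell 6. In a set of 37 most of these gaps amount to few genes, and the cells are not replicates. The count of cells is therefore no result about the set. The number of regulators above background follows in part from the background levels, which were lowest in MM cells 19 and 14, at 7.13 and 7.15. The regulators' median signal was 6.33 to 6.47 in MM and 6.54 to 6.63 in JG cells. That of all genes was 6.21 to 6.38 and 6.42 to 6.46. A regulator below the background level is not shown to be absent from a cell.

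**Figure D5:**
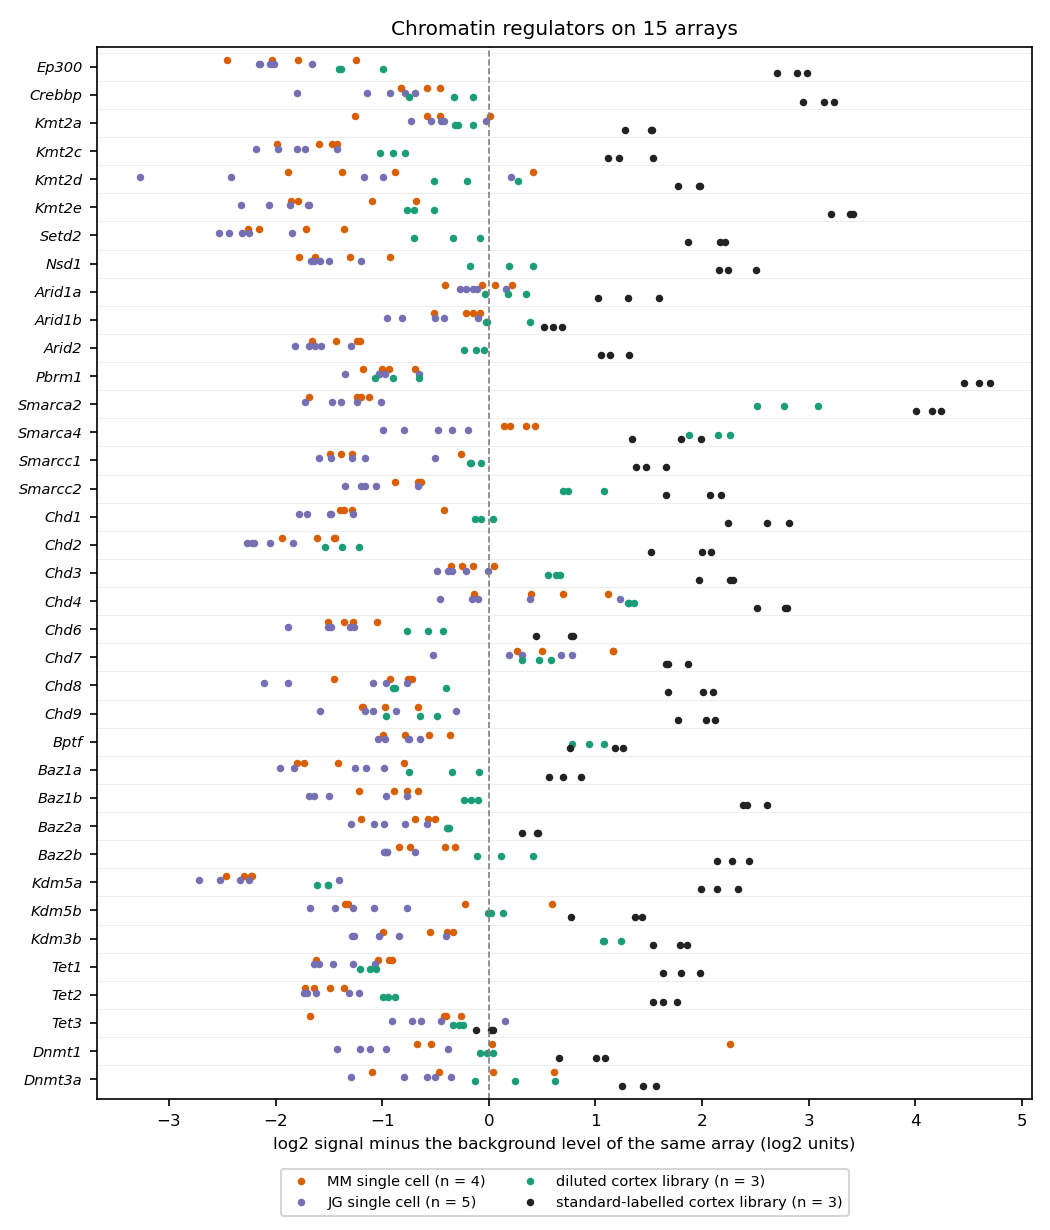
Log2 signal of each of the 37 regulators minus the background level of the same array, 1 point per array; orange, MM cells; purple, JG cells; green, diluted cortex; black, standard-labelled cortex. Points right of the dashed line are above background. Standard-labelled libraries lie to the right for all but Tet3 in library B, whereas most cells lie to the left, with Chd7 above the line in 8 of 9 cells and Dnmt1 of MM cell 19 far to the right of the other MM cells.

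Chd7 was above background in more cells than any other regulator, in all 4 MM cells and in 4 of 5 JG cells. Its signals were 8.31, 7.90, 7.83 and 8.30 in MM cells 14, 15, 16 and 19, and 8.04, 8.61, 7.21, 7.88 and 8.34 in JG cells 4 to 8. The diluted libraries had 6.76, 6.75 and 6.61 and the standard-labelled ones 8.18, 8.17 and 7.99, so cells and standard-labelled cortex overlap and JG cell 6 is the lowest cell. This probe set is the brightest of 30 by a mean that includes the cells. Of the 30, 2 were above background in 8 cells, 1 in 5, 1 in 2, 2 in 1 and 24 in none. The rank of Chd7 among regulators, most of which have 1 probe set, therefore follows in part from that choice. Chd4, the NuRD motor, was above background in 5 cells, with 7.84, 7.26, 7.96 and 8.25 in MM and 7.63, 7.47, 7.58, 8.92 and 7.94 in JG cells. MM cells 14, 16 and 19 and JG cells 7 and 8 passed the level, and the 2 kinds of cell overlap.

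Smarca4 was the only regulator above background in every MM cell and in no JG cell. Its MM signals were 7.50, 7.59, 7.70 and 7.57, and its JG signals 6.73, 7.14, 7.54, 7.22 and 7.21, the highest of which overlaps the MM range. The MM signals passed their background levels by only 0.14 to 0.44. Those levels were 7.13 to 7.56, against 7.55 to 7.93 in JG cells. JG cell 6 was brighter than MM cell 14 yet below its own level, so the contrast follows in part from the levels. All 9 cells lay below the lowest diluted library, 8.18. Arid1a, the ARID subunit of the canonical complex, was above background in MM cells 14 and 19 and JG cell 7, at 7.37, 7.19 and 7.86. The remaining cells had 7.15 to 7.66, close to their background levels.

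Dnmt1 was brightest in MM cell 19. Its signals were 7.18, 6.72, 7.02 and 9.40 in MM cells 14, 15, 16 and 19 and between 6.31 and 7.17 in JG cells, and it was above background in MM cells 14 and 19 alone. The value of 9.40 lay above the standard-labelled libraries, which had 7.18, 7.39 and 7.31, but its gap to the other MM cells did not pass Dixon's test. Dnmt1 works at the replication fork, and of 11 DNA replication markers 9, 4, 1 and 7 were above background in MM cells 14, 15, 16 and 19 and 0 to 2 in JG cells. Whether this goes with the level of Dnmt1 was not tested. Dnmt3a passed in MM cells 14 and 15, at 7.19 and 8.02, and Kmt2d in MM cell 19 and JG cell 4, at 7.54 and 7.93, while its lowest cell, JG cell 5, had 4.66. Kmt2a and Chd3 passed in MM cell 14, Kdm5b in MM cell 19 at 7.73 and Tet3 in JG cell 8 at 7.71, each in 1 cell.

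Comparisons of cells with the diluted cortex, which shares their protocol, ask which genes differ between these cells and mixed cortex. Their direction for the set depends on the scaling. The receptor probe sets were brighter by 1.05 in JG and by 0.84 in MM cells than in the diluted cortex, so differences of group means are given after subtracting this shift and also as deposited, and 1 log2 unit was set as the size to report. After the shift, JG cells had 9 of 37 regulators lower by this size and none higher, where 41.1% of all genes were lower and 0.517% higher. As deposited, 2 were lower (27.7% of all genes) and 7 higher (32.8%). The 7 were Kmt2a, Arid1a, Pbrm1, Chd7, Chd9, Tet1 and Tet3. Of these, Kmt2a, Pbrm1, Chd9 and Tet1 were below background in every diluted library and every JG cell, so their place in the count is no measured difference. After the shift, MM cells had 8 lower and none higher, where 37.5% of all genes were lower and 0.717% higher. As deposited, 1 was lower (24.8% of all genes) and 3 were higher (17.2%), namely Chd7, Tet1 and Dnmt1. Tet1 was below background in every MM cell as well, so the same limit holds for it. The regulators' median turned from -0.53 after the shift to 0.52 as deposited in JG cells and from -0.49 to 0.35 in MM cells, and that of all genes from -0.49 to 0.56 and from -0.43 to 0.42. Thus the regulators' median lay close to that of all genes on either scale. These comparisons share the 3 diluted libraries, so their likeness is no result. In each comparison 19 of the 37 regulators were below background in every library and every cell, so that neither side is a measured level.

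Smarca2 was the regulator lower by this size in both kinds of cell after the shift, as deposited and with quantile normalization. It read 9.27, 8.81 and 9.07 in the diluted cortex, 5.91, 5.71, 6.43 and 5.93 in MM cells and 6.72, 6.46, 6.01, 6.46 and 6.17 in JG cells. No cell came near the cortex libraries, and all 9 were below background, so the difference is a bound: on the deposited scale Smarca2 was at least 2.49-fold lower in JG and at least 3.33-fold lower in MM cells. Smarca4, below background in all JG cells, was at least 1.54-fold lower there. In MM cells, where it was above background, the difference was -0.76 as deposited and -1.61 after the shift. Of the 9 regulators counted as lower in JG cells after the shift, 5 were above background in all 3 diluted libraries: Smarca2, Smarca4, the scaffold Smarcc2, Bptf and Kdm3b. The same 5 were among the 8 of MM cells. Nsd1 was above background in 2 of 3 diluted libraries, and Chd1, counted in JG cells alone, in 1 of 3. Setd2 and Arid2 were above it in no library and no cell, so their place in the count is no measured difference. For Smarcc2, Bptf and Kdm3b the background level of the JG cells lay above the diluted signal, so no fold can be given. These values carry no test.

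Between MM and JG cells, 1 regulator reached this size. With a receptor shift of -0.21, the median difference of the regulators, MM minus JG, was 0.07, against 0.01 for all genes, and as deposited it was -0.14, against -0.19. None of the 37 was 1 log2 unit lower in MM cells, where 0.747% of all genes were, and where 10.7% of all genes were higher, 1 of the 37 was. That gene was Dnmt1 at 1.08, and without MM cell 19, without JG cell 6 or with group medians in place of means no regulator reached that size. Kdm5b had 5.83, 6.05, 7.33 and 7.73 in MM cells, and its JG signals ran from 6.25 to 6.97, so the MM cells spread on either side of the JG range.

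By group means of the deposited signals, 32 of the 37 regulators were highest in the standard-labelled cortex. Smarca4 was highest in the diluted cortex, Dnmt1 in MM cells, and Arid1b, Baz2a and Tet3 in JG cells, the group with the brightest receptor probe sets on average. The place of Dnmt1 rests on MM cell 19 at 9.40. The remaining MM cells, at 6.72 to 7.18, lay below its standard-labelled mean of 7.30. Arid1b and Baz2a were above background in none of the 5 JG cells and Tet3 in 1, so these JG means are not detected levels apart from Tet3 in JG cell 8.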

How the data were processed

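The log2 probe set values of 15 arrays were used as deposited: 35557 probe sets, from 2.22 to 13.98, with none missing. The submitters' processing notes name Affymetrix Expression Console; for its version, summary method and normalization, the sources used here give nothing. The platform annotation lists 23410 probe sets, 21789 with 1 symbol, 1621 with several, and 12147 more are unlisted. Through RefSeq (GRCm38.p6) 21698 matched and 0 changed symbol.

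The members and gene lists were chosen with earlier results of these data known. Each member could be named. Given array by array are those with the lowest and highest cortex difference in each role, and those above background in the most cells. Up to 2 partner genes a list were named by largest difference. Other members with array values were added after seeing them.

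Cortex libraries were compared with limma 3.58.1 in R 4.3.3, with no covariate, an adjusted p under 0.05 and a filter at the median of all probe set values. The fit was tested on simulated data. Cells were compared by group means. No transcript lengths were used, so genomic span took their place. Alternatives covered scaling, filter, probe sets, a replicate block and left-out arrays. An array has no count depth, and the number of arrays limits the precision. Python 3.11.15 was used for all else.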

Additional observations from a re-analysis of the deposited data

Results flagged for a closer look

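In 4 of 74 groups of cells tested (37 regulators in 4 MM and in 5 JG cells), 1 cell stood apart from the others of its kind by Dixon's gap ratio, and chance flags about 1 group in 20. Kmt2a, an H3K4 methyltransferase, read 7.71 in JG cell 6, where the remaining JG cells had 7.11 to 7.27. Kdm3b, an H3K9 demethylase, read 7.34 in JG cell 6, against 6.47 to 6.71 elsewhere. Baz2b read 7.24 in JG cell 5, against 6.60 to 6.77 elsewhere. Smarcc2 read 6.92 in MM cell 16, where the remaining MM cells had 6.46 to 6.52. None of the 4 values was above its array's background level, which was 7.74 in JG cell 6, 7.93 in JG cell 5 and 7.56 in MM cell 16. Dnmt1 in MM cell 19, at 9.40 against 6.72 to 7.18 in the rest of its kind, was not among the 4.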

How the results depend on the processing

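In the cortex comparison 35 regulators were lower under the filter, scaling and prior alternatives, 33 in a fit over all 15 arrays, 34 with the mean of all probe sets of a gene, and 35 to 36 when each library was left out in turn, and none was higher in any of them. The median difference ran from -1.82 to -1.71, and was -1.56 with the 20 genes below background in every diluted library at their bound, an alternative chosen after seeing the data. With letters A, B and C as a replicate block 35 were lower and no call changed. Same-letter libraries had deviation correlations of 0.089, 0.070 and 0.021, and libraries of unlike letters -0.097 to 0.042. Such small values over all probe sets cannot show whether a letter stands for shared tissue, and the labels name no animal. Of single-gene values under these alternatives, 473 kept their call, 3 of Bptf gained it and 3 (2 of Tet3, 1 of Dnmt1) lost it. Bptf was -0.34 with quantile normalization (limma adjusted p = 0.0139) and -0.35 without standard-labelled library A (limma adjusted p = 0.0198).

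Counts for cells depend on the scaling. Without the receptor shift, JG cells against diluted cortex had 2 lower and 7 higher (all genes 27.7% and 32.8%), MM cells had 1 lower and 3 higher (24.8% and 17.2%), and MM against JG cells had 0 higher (8.83%). With quantile normalization of the 15 arrays these were 2 and 5 for JG (26.0% and 12.7%) and 1 and 2 for MM cells (21.2% and 8.3%). The regulators' median difference changed sign without the shift, to 0.52 for JG and 0.35 for MM cells against diluted cortex and -0.14 for MM against JG cells. With quantile normalization it was -0.14, 0.12 and -0.018. Leaving out each array in turn gave 8 to 10 lower and medians of -0.62 to -0.48 for JG cells, 7 to 9 lower for MM cells, and for MM against JG cells 0 to 1 higher and medians of -0.017 (without JG cell 4) to 0.12. The count of 0 there came without MM cell 19 or JG cell 6 and with group medians. Without JG cells 4 and 5, an alternative chosen after seeing the data, it was 0 and the medians were -0.43 for JG against diluted cortex and -0.028 for MM against JG cells. With the mean of a gene's probe sets the median of MM cells against diluted cortex was -0.41. With the 95th percentile of the receptors as background, the median number of regulators above it was 15 in MM cells (5 at the 99th), 12 in JG cells (2 at the 99th) and 27 in diluted libraries (13 at the 99th). With the mean of a gene's probe sets it was 0 in JG cells. The causes were not tested. In the cortex comparison no regulator changed direction.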
